A study of Homo sapiens with 6 samples.

Results

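Rab GTPases are small membrane switches that give each compartment of the secretory and endocytic pathways its identity, and 105 genes of this switch were read on the arrays, out of 18417 genes in all. They were taken by symbol: 60 Rab genes, 14 genes of the DENND exchange factors and 31 genes of the TBC1D family, of which RAB1C, TBC1D27P and TBC1D29P, 3 in all, are pseudogenes by RefSeq. The cells were U373MG, an established human glioblastoma line, which had received vehicle (DMSO) for 24 hours or a marine-derived tetrahydroisoquinoline alkaloid for the same time, namely ET-770 at 4.83 nM, its derivative ET-770-DR at 1.70 nM or renieramycin M (RM) at 3.10 nM. Each dose is the IC50 of that compound as the labels give it, so that the doses were not matched, and the compounds are set side by side without a test between them. There were 3 independent experiments of 2 arrays, 1 with a compound and 1 with its own DMSO control, and the labels name no genetic change in any group.

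A Rab protein is switched on when an exchange factor swaps its GDP for GTP, and it then recruits effectors such as tethers and motors that move or dock a vesicle. A GTPase-activating protein, usually one with a TBC domain, switches it off. The GDP-bound Rab is pulled from the membrane by GDI, and the lipid tail that anchors it is added by geranylgeranyl transferase with the help of an escort protein. DENND proteins form a large family of exchange factors, among which the DENND1 proteins act on RAB35, the DENND4 proteins on RAB10 and the DENND6 proteins on RAB14. In glioma cells this machinery is known for the traffic of growth factor receptors and integrins between endosomes and the cell surface.

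The promoters of RAB35, of its exchange factors DENND1A and DENND1B and of TBC1D5 are shown because these genes carry the contrast described further on, in which RAB35 rose while the others fell, and they were picked after the values were seen. Each run is the 250 bases before the RefSeq start, 5′ to 3′ on the strand of the gene, and all of these genes lie on the minus strand of GRCh38.p14. Capitals mark the GC box, GGGCGG or its complement CCGCCC.
RAB35: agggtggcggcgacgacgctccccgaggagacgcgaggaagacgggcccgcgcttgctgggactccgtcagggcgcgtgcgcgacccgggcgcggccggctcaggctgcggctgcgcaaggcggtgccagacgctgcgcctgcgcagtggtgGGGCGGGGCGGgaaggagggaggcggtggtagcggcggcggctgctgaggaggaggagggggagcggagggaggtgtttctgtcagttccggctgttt
DENND1A: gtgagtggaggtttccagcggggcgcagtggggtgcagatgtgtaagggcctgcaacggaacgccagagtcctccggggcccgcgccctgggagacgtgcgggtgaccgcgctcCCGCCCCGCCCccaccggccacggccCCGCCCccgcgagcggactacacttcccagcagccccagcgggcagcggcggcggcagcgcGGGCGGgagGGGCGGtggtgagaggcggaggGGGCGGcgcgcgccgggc
DENND1B: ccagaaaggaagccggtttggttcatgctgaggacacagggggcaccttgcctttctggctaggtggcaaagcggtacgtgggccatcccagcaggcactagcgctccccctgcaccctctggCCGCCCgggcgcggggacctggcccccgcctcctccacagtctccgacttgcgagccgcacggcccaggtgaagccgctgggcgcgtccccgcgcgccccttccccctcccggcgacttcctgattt
TBC1D5: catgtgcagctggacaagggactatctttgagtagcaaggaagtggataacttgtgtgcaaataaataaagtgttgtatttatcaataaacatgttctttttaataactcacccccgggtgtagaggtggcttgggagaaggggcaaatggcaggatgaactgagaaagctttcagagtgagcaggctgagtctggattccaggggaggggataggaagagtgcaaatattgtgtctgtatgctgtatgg
They lie at chr12:120116754-120117003, chr9:123930127-123930376, chr1:197775481-197775730 and chr3:17740908-17741157. The RAB35 window held 2 GC boxes, which share a base, the DENND1A window held 6, of which the leftmost pair also share a base, the DENND1B window held 1 and the TBC1D5 window held 0. Of 27305 RefSeq promoters of the same length, 42.3% held a GC box on either strand. The GC content was 74.4%, 78.4% and 69.6% in the first 3 windows and 44.4% in that of TBC1D5, beside a median of 58% over all promoters. None of the 4 windows held a CCAAT box (letters CCAAT, found on either strand of 33.0% of all promoters). None held an E-box (letters CACGTG, found in 6.49%), nor a cyclic AMP element (letters TGACGTCA, found in 1.77%), nor the letters TATAA, found in 19.6%.

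The arrays were Human Gene 1.0 ST arrays, and the deposited values are RMA signals on a log2 scale. The array medians over all probes lay between 6.63 and 7.30 and were highest in the ET-770 experiment, so each compound array was read against its own control. The median change of all genes against that control was 0.12 for RM, -0.03 for ET-770-DR and 0.02 for ET-770 on the log2 scale, and these shifts were not removed. The glioma markers VIM and CD44 were brighter than 99.6% of all genes on every DMSO array, NES, S100B and EGFR stood between 66.9% and 91.6%, and the leukocyte, endothelial and epithelial markers PTPRC, PECAM1 and EPCAM stood at 6.57% or less. GFAP, the astrocyte filament, lay in the middle of the range, at 43.6% to 50.7%. The neuronal markers SNAP25 and SYT1 lay between 27.4% and 49.2% and the oligodendrocyte marker MBP between 39.9% and 50.5%. From a whole culture, a fall in the share of cells that express a gene and a fall in its RNA per cell cannot be told apart.

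A change common to the compounds was sought with limma over 18417 genes, blocking on experiment, so that the compounds served as replicates of each other (n = 3 pairs). A gene was called at a Benjamini-Hochberg adjusted p under 0.05, and the shared change is the mean log2 difference between compound and DMSO. Of the DENND exchange factors, 7 of 14 fell and 0 rose, and their median shared change was -0.42. At an unadjusted p under 0.05, 9 of them were lower and 2 higher, beside 14.4% and 19.4% of all genes. DENND3, whose symbol has no letter at its end and so was not taken as a member, had a shared change of -0.01 (SE 0.14, adjusted p = 0.987 by limma). Of the TBC1D genes, 8 of 31 fell and 2 rose, with a median of -0.01. Of the Rabs, 5 of 60 fell and 10 rose, with a median of 0.03. The background over all genes was 11.2% that fell and 13.1% that rose, with a median of 0.03, so the share of Rabs called in either direction, 8.33% down and 16.7% up, was near the background, while 50% of the DENND genes and 25.8% of the TBC1D genes fell. The classes also differ in the length of genome that a gene covers. The median was 125 kb for DENND, 73.5 kb for TBC1D and 34.7 kb for Rab genes, beside 24.5 kb for all genes. Of all genes of 100 kb or more, 47.7% fell, and the part of length in the class shares was not tested. All 32 members called went the same way in 3 of 3 experiments. Without the experiment as a block only DENND1A, DENND1B and TBC1D5 of the 32 were called, and over all genes the count dropped from 4471 to 395.

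**Figure D1:**
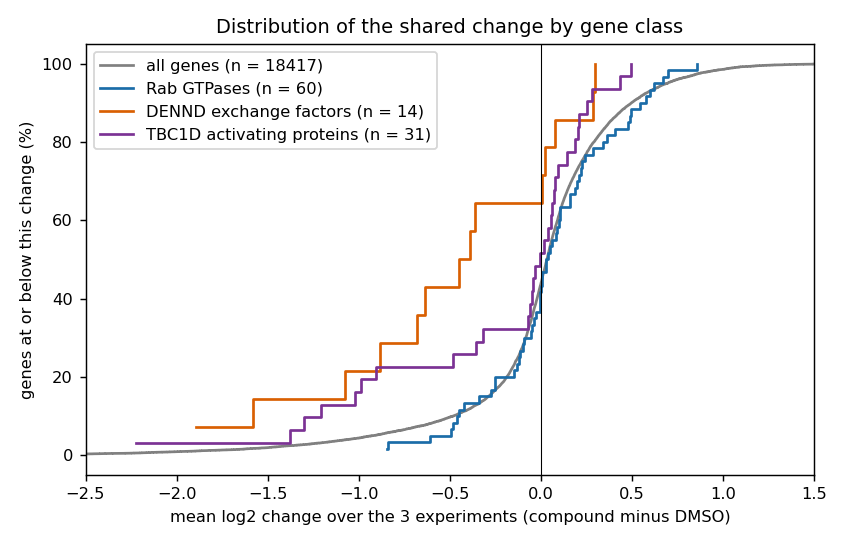
Cumulative share of genes (vertical axis, percent) at or below a given shared change (horizontal axis, mean log2 change from DMSO over the 3 experiments), for all 18417 genes and for each class. The DENND curve lies far to the left with its median at -0.42, the TBC1D curve departs from all genes at its lower end, and the Rab curve follows that of all genes with a median of 0.03.

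**Figure D2:**
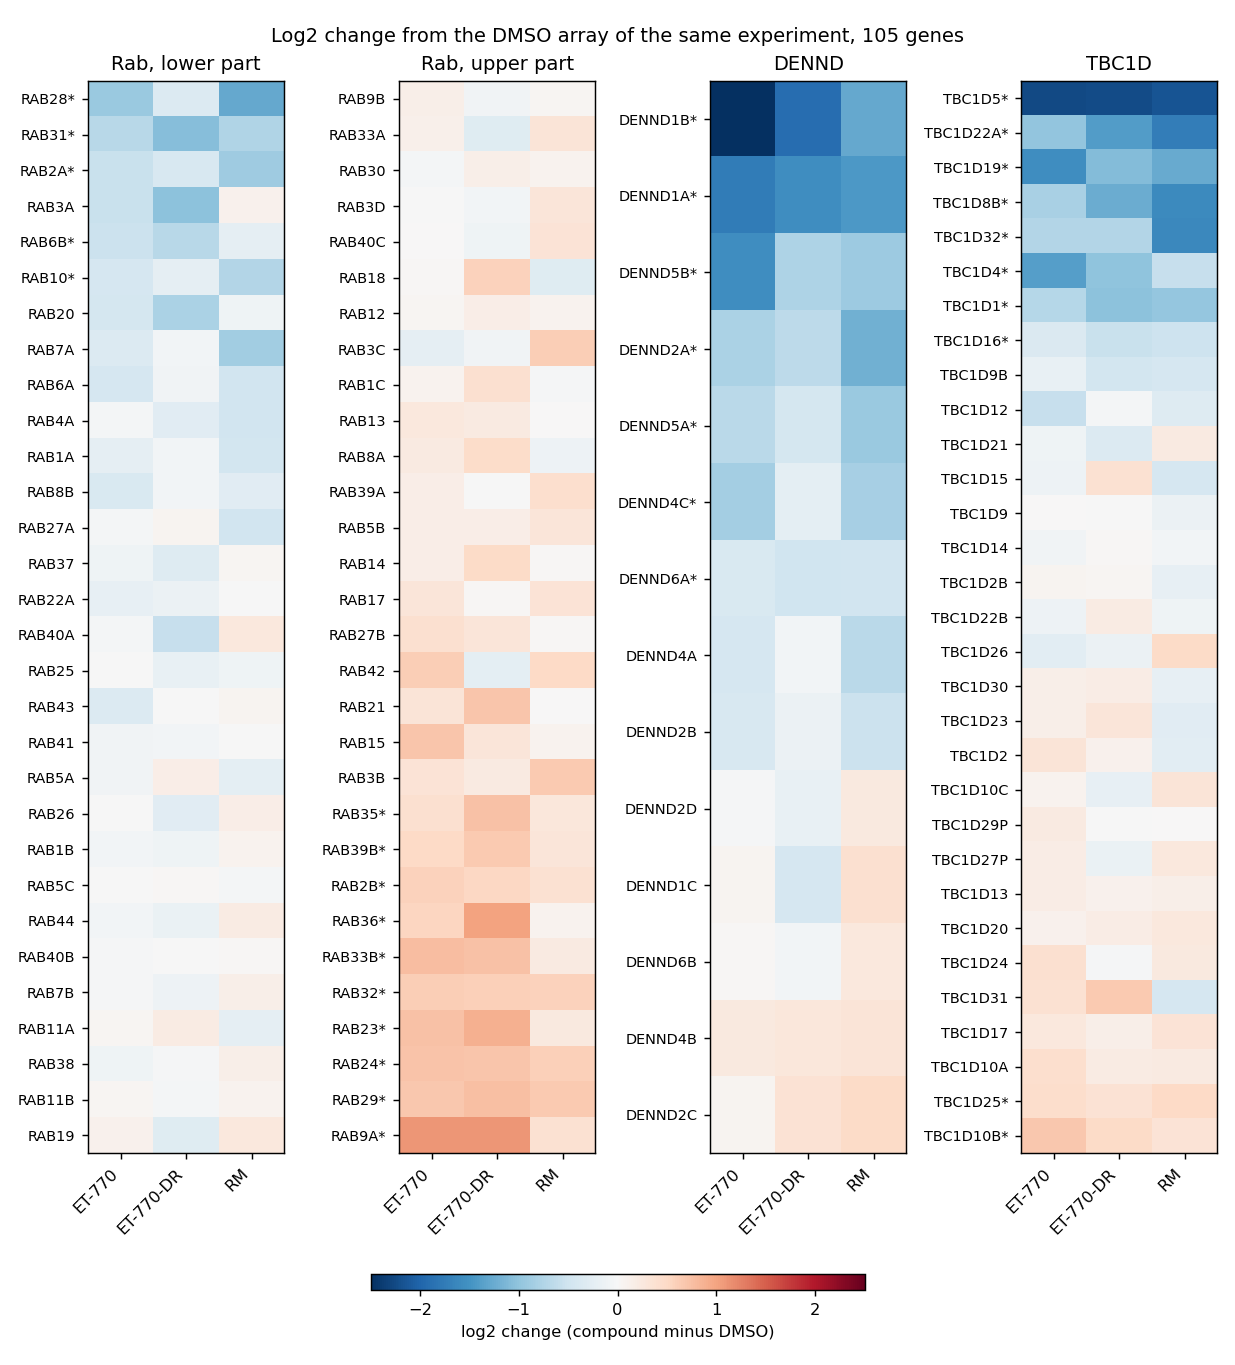
Log2 change of each of the 105 genes (rows, ordered by shared change within a class) with each compound (columns), relative to its own DMSO array. Blue is lower and red is higher than DMSO, and an asterisk marks the 32 genes called in the shared response, all of which have 1 colour across the 3 columns.

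The exchange factors of RAB35 fell most among the DENND genes. In what follows, the 3 values of a gene stand in the order ET-770, ET-770-DR and RM, and a rise or fall is the shared change on the log2 scale. DENND1A, also called connecdenn 1, which activates RAB35 at clathrin-coated pits and endosomes, had log2 signals of 9.19, 8.16 and 8.28 with DMSO and of 7.44, 6.60 and 6.84 with the compounds. All compound arrays lay below all DMSO arrays. The signal was 0.298, 0.341 and 0.368 times that of DMSO, and DENND1A fell by 1.58 (SE 0.13, adjusted p = 3.36e-05 by limma). DENND1B, a close relative that is known for its part in receptor uptake in T cells, had log2 signals of 7.88, 6.85 and 7.07 with DMSO and of 5.38, 4.94 and 5.79 with the compounds, again with no overlap. Its folds were 0.177, 0.267 and 0.413, and it fell by 1.89 (SE 0.20, adjusted p = 0.000172 by limma). DENND1B was read by 2 probes, which both fell with every compound, with mean log2 changes of -2.23 and -1.56. DENND1C, the third relative, had log2 signals of 6.51, 5.98 and 6.10 with DMSO and of 6.58, 5.56 and 6.51 with the compounds and a shared change of 0.02 (SE 0.16, adjusted p = 0.965 by limma).

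RAB35 itself, which brings cargo back from endosomes to the plasma membrane and takes part in cytokinesis, went the other way. The RAB35 gene covers 21.7 kb of genome, while DENND1A and DENND1B cover 550 and 277 kb. The part of gene length in this contrast was not tested. RAB35 had log2 signals of 10.16, 9.03 and 9.23 with DMSO and of 10.56, 9.77 and 9.52 with the compounds. It was higher than its own control in each experiment although the groups overlap across experiments. RAB35 rose by 0.48 (SE 0.13, adjusted p = 0.0289 by limma), a mean of 1.39-fold. This call was lost without the ET-770 experiment (adjusted p = 0.142) and without the ET-770-DR experiment (adjusted p = 0.175), in limma fits of the remaining pairs. TBC1D10A, TBC1D10B and TBC1D10C are activating proteins that switch RAB35 off in cell-based assays. Of these, TBC1D10B rose by 0.49 (SE 0.13, adjusted p = 0.0187 by limma), TBC1D10A had a shared change of 0.28 (SE 0.12, adjusted p = 0.144 by limma) and TBC1D10C one of 0.07 (SE 0.14, adjusted p = 0.827 by limma). TBC1D10B was not called without the ET-770 experiment (adjusted p = 0.312 by limma), and its quantile-normalized DMSO signals differed by over 2-fold between experiments.

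**Figure D3:**
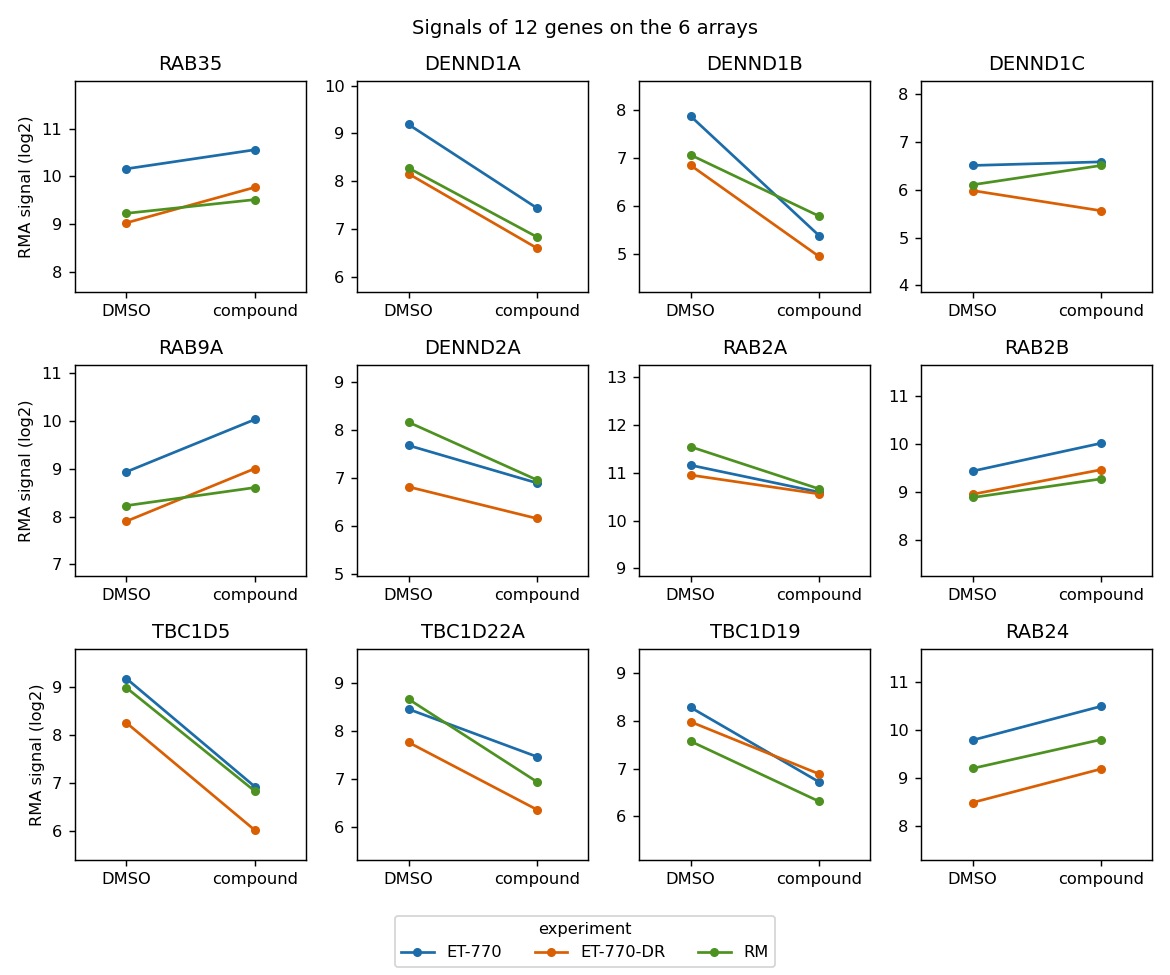
RMA signals (vertical axis, log2) of 12 genes on the 6 arrays, each line joining the DMSO array and the compound array of 1 experiment (horizontal axis). The panels span the same number of log2 units, and the lines of DENND1A, DENND1B, TBC1D5, TBC1D22A and TBC1D19 fall in every experiment while those of RAB35, RAB9A, RAB2B and RAB24 rise in every experiment.

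Other exchange factors fell by less. DENND5A and DENND5B act on RAB39 and also bind RAB6. DENND5B had log2 signals of 8.81, 7.51 and 8.05 with DMSO and of 7.26, 6.73 and 7.15 with the compounds, with no overlap, and fell by 1.08 (SE 0.16, adjusted p = 0.00117 by limma). DENND5A fell by 0.68 (SE 0.14, adjusted p = 0.00529 by limma). DENND2A, an exchange factor for RAB9, had log2 signals of 7.68, 6.81 and 8.16 with DMSO and of 6.89, 6.15 and 6.96 with the compounds and fell by 0.88 (SE 0.14, adjusted p = 0.00162 by limma). Its DMSO signals differed by over 2-fold between experiments after quantile normalization and its groups overlap, but it was lower in every pair. Of the DENND4 proteins, which act on RAB10, DENND4C fell by 0.64 (SE 0.15, adjusted p = 0.0126 by limma), while DENND4A had a shared change of -0.39 (SE 0.14, adjusted p = 0.0837 by limma) and DENND4B one of 0.28 (SE 0.12, adjusted p = 0.126 by limma). DENND4A passed the threshold after quantile normalization and without the ET-770-DR experiment, at adjusted p-values of 0.0338 and 0.0288 in limma.

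DENND6A, an exchange factor for RAB14, had log2 signals of 9.35, 9.02 and 9.42 with DMSO and of 8.97, 8.51 and 8.95 with the compounds, with no overlap, and fell by 0.45 (SE 0.12, adjusted p = 0.0219 by limma). Its relative DENND6B had a shared change of 0.08 (SE 0.13, adjusted p = 0.778 by limma). Without the ET-770 experiment DENND4C and DENND6A were not called (adjusted p = 0.121 and 0.171), nor was DENND6A without that of ET-770-DR (adjusted p = 0.083), all by limma. DENND2B, an exchange factor for RAB13, had a shared change of -0.36 (SE 0.13, adjusted p = 0.0749 by limma), and DENND2D one of 0.01 (SE 0.13, adjusted p = 0.986 by limma). DENND2C, the DENND gene with the highest shared change, had log2 signals of 7.22, 6.44 and 7.57 with DMSO and of 7.28, 6.80 and 8.04 with the compounds and stood at 0.30 (SE 0.13, adjusted p = 0.146 by limma). DENND2C was read here by 1 probe. The study, however, lists DENND2C first among the genes raised by RM, at 4.28-fold. A further probe, which carries no symbol in the platform annotation used, may be the one that the study read as DENND2C, but this match was made from its RM fold and not from a table of probes, and the probe entered no count. The probe was chosen by this fold, so its value with RM was fixed by the choice. Its log2 signals were 5.63, 5.10 and 5.85 with DMSO and 5.90, 5.82 and 7.94 with the compounds, with folds of 1.21, 1.65 and 4.28, so that it was far higher with RM than the probe that carries the symbol, whose folds were 1.04, 1.28 and 1.39.

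Among the activating proteins TBC1D5 fell most, and did so almost equally with every compound. TBC1D5 binds the retromer coat and inactivates RAB7A on late endosomes. It had log2 signals of 9.18, 8.26 and 8.99 with DMSO and of 6.92, 6.01 and 6.83 with the compounds. Every compound array was below every DMSO array, and the folds were 0.209, 0.211 and 0.224, the only gene of the 105 to fall by more than 3-fold with each compound. TBC1D5 fell by 2.22 (SE 0.12, adjusted p = 7.12e-06 by limma). RAB7A, the Rab of late endosomes and lysosomes on which TBC1D5 acts, had log2 signals of 10.22, 9.07 and 8.80 with DMSO and of 9.89, 9.01 and 7.93 with the compounds and a shared change of -0.42 (SE 0.16, adjusted p = 0.0922 by limma), and without the ET-770-DR experiment it was called lower (adjusted p = 0.0241 by limma). These signals average a bright and a dim probe, with mean log2 signals of 12.20 and 6.11 and mean log2 changes of -0.38 and -0.47. TBC1D15, another activating protein for RAB7A, had a shared change of -0.06 (SE 0.16, adjusted p = 0.882 by limma).

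TBC1D1 and TBC1D4 are substrates of AKT and AMPK that restrain the RAB8A, RAB10 and RAB14 vesicles carrying glucose transporters. TBC1D4, also called AS160, had log2 signals of 8.91, 8.07 and 8.21 with DMSO and of 7.54, 7.06 and 7.63 with the compounds. TBC1D1 had log2 signals of 10.43, 9.88 and 10.06 with DMSO and of 9.71, 8.85 and 9.10 with the compounds. The compound arrays lay below the DMSO arrays for both. TBC1D4 fell by 0.99 (SE 0.16, adjusted p = 0.00173 by limma), and TBC1D1 fell by 0.90 (SE 0.13, adjusted p = 0.000778 by limma). Of the Rabs they restrain, RAB10 fell by 0.46 (SE 0.14, adjusted p = 0.0355 by limma), RAB8A had a shared change of 0.19 (SE 0.14, adjusted p = 0.446 by limma) and RAB14 one of 0.22 (SE 0.13, adjusted p = 0.306 by limma). RAB10 was not called without the ET-770 experiment (adjusted p = 0.188) or that of RM (adjusted p = 0.0674), and RAB8A was called higher without RM (adjusted p = 0.0482), by limma.

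TBC1D22A, a Golgi member of the family, had log2 signals of 8.46, 7.77 and 8.67 with DMSO and of 7.47, 6.36 and 6.94 with the compounds, with no overlap. It fell by 1.38 (SE 0.15, adjusted p = 0.000233 by limma), whereas its close relative TBC1D22B had a shared change of -0.01 (SE 0.13, adjusted p = 0.982 by limma). TBC1D19 had log2 signals of 8.28, 7.98 and 7.57 with DMSO and of 6.72, 6.89 and 6.32 with the compounds, also with no overlap, and fell by 1.30 (SE 0.13, adjusted p = 0.000147 by limma). TBC1D32, needed for the assembly of cilia, had log2 signals of 6.19, 6.01 and 7.46 with DMSO and of 5.46, 5.29 and 5.84 with the compounds and fell by 1.02 (SE 0.18, adjusted p = 0.00287 by limma). TBC1D8B had log2 signals of 7.26, 6.40 and 8.10 with DMSO and of 6.46, 5.16 and 6.51 with the compounds and fell by 1.21 (SE 0.16, adjusted p = 0.000545 by limma). The DMSO signals of TBC1D32 and TBC1D8B differed by over 2-fold between experiments after quantile normalization, with the highest in the RM experiment, where both also fell most.

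The remaining calls in the family were small. TBC1D16, an activating protein for RAB4A, fell by 0.48 (SE 0.12, adjusted p = 0.0169 by limma), and was not called without the ET-770 experiment (adjusted p = 0.113) or that of ET-770-DR (adjusted p = 0.0706). TBC1D25, which acts on RAB33B at autophagosomes, rose by 0.43 (SE 0.12, adjusted p = 0.0269 by limma), and was not called without ET-770 (adjusted p = 0.269) or ET-770-DR (adjusted p = 0.0523), by limma. TBC1D20, the activating protein for RAB1 in the early secretory pathway, had log2 signals of 10.70, 9.57 and 9.56 with DMSO and of 10.81, 9.75 and 9.82 with the compounds and a shared change of 0.19 (SE 0.12, adjusted p = 0.343 by limma). The 21 TBC1D genes not called had shared changes between -0.35 and 0.28. Of the 8 TBC1D genes that fell, 7 were called without the ET-770 experiment and 7 without that of ET-770-DR, and 8 without that of RM. Over all genes 1505, 1871 and 2635 were called as falls in these fits, beside 2065 with all experiments. The quantile-normalized DMSO signals of 17 of the 105 members, 11 Rabs, 3 DENND genes and 3 TBC1D genes, differed by over 2-fold between experiments, beside 16.7% of all genes.

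Of the Rabs, RAB9A rose most. RAB9A, which moves mannose 6-phosphate receptors from late endosomes back to the Golgi, had log2 signals of 8.94, 7.90 and 8.23 with DMSO and of 10.03, 9.0 and 8.61 with the compounds. It was higher in every pair, with folds of 2.13, 2.14 and 1.3, and rose by 0.86 (SE 0.16, adjusted p = 0.0041 by limma). Its relative RAB9B had a shared change of 0.04 (SE 0.12, adjusted p = 0.903 by limma). DENND2A, which acts on RAB9, fell, as described. RAB36, which also sits on late endosomes and lysosomes, rose by 0.54 (SE 0.17, adjusted p = 0.0438 by limma), with folds of 1.45, 2.01 and 1.07, with the highest from ET-770-DR. RAB36 was not called after quantile normalization (adjusted p = 0.0681), without ET-770 (adjusted p = 0.104) or without ET-770-DR (adjusted p = 0.253), by limma.

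Other Rabs that rose are known from several organelles. RAB29, also called RAB7L1, which recruits the kinase LRRK2 to the Golgi and to lysosomes, had log2 signals of 9.34, 8.44 and 9.58 with DMSO and of 10.02, 9.19 and 10.24 with the compounds and rose by 0.70 (SE 0.12, adjusted p = 0.00239 by limma). RAB24, which is linked to the clearance of autophagosomes, had log2 signals of 9.79, 8.49 and 9.20 with DMSO and of 10.50, 9.19 and 9.80 with the compounds and rose by 0.67 (SE 0.12, adjusted p = 0.0030 by limma). RAB32, which directs cargo to melanosomes and other lysosome-related organelles, had log2 signals of 9.57, 8.64 and 9.48 with DMSO and of 10.20, 9.24 and 10.04 with the compounds and rose by 0.60 (SE 0.12, adjusted p = 0.00533 by limma). The rises of RAB24, RAB29 and RAB32 had almost the same size with each compound, with folds of 1.63, 1.63 and 1.52 for RAB24, 1.6, 1.69 and 1.58 for RAB29 and 1.54, 1.51 and 1.48 for RAB32. RAB33B, a Golgi Rab that binds the autophagy protein ATG16L1, rose by 0.58 (SE 0.14, adjusted p = 0.0163 by limma). RAB23, a negative regulator of Hedgehog signaling at the cilium, rose by 0.62 (SE 0.15, adjusted p = 0.0134 by limma). For RAB23 and RAB33B the change with RM was the smallest, at folds of 1.67, 1.84 and 1.18 and 1.7, 1.66 and 1.17.

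RAB2A and RAB2B, close relatives that act between the endoplasmic reticulum, the Golgi and late endosomes, moved in opposite directions. RAB2A had log2 signals of 11.16, 10.95 and 11.54 with DMSO and of 10.59, 10.56 and 10.66 with the compounds, with no overlap, and fell by 0.61 (SE 0.14, adjusted p = 0.0092 by limma). RAB2B had log2 signals of 9.43, 8.95 and 8.88 with DMSO and of 10.01, 9.46 and 9.27 with the compounds and rose by 0.49 (SE 0.12, adjusted p = 0.0152 by limma). The difference between the relatives was not tested. RAB39B, a neuronal Rab mutated in X-linked intellectual disability, is the tenth Rab that rose, at 0.49 (SE 0.13, adjusted p = 0.0204 by limma), and was named after its values were seen. Its signal was among the lowest 25% of genes, as for 9 members in all, and its DMSO signals differed by over 2-fold after quantile normalization. Without the ET-770 experiment RAB9A, RAB24 and RAB29 were still called, 3 of 10, and the adjusted p was 0.232 for RAB2B, 0.0761 for RAB32, 0.0933 for RAB23, 0.188 for RAB33B and 0.182 for RAB39B. Without that of ET-770-DR 5 of 10 were called, RAB2B and RAB32 besides, and the adjusted p was 0.0624 for RAB23, 0.0625 for RAB33B and 0.106 for RAB39B. Without that of RM all 10 were called, in limma fits throughout. Over all genes 1200, 1581 and 3506 were called as rises in these fits, beside 2406 with all experiments. RAB32 lost its call without ET-770 although its shared change there was 0.58, beside 0.60 with all experiments.

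The Rabs that fell sit at different places in the cell. RAB31, which carries mannose 6-phosphate receptors and the EGF receptor between the Golgi and endosomes, had log2 signals of 12.24, 11.73 and 11.42 with DMSO and of 11.54, 10.66 and 10.67 with the compounds and fell by 0.84 (SE 0.13, adjusted p = 0.00137 by limma). RAB28, which takes part in ciliary and photoreceptor membrane turnover, had log2 signals of 8.84, 8.33 and 8.29 with DMSO and of 7.91, 8.0 and 7.02 with the compounds, with no overlap, and fell by 0.85 (SE 0.17, adjusted p = 0.00611 by limma). RAB6B, the form of the Golgi Rab RAB6 that is enriched in brain, fell by 0.49 (SE 0.14, adjusted p = 0.0273 by limma), and was not called without ET-770 (adjusted p = 0.223) or ET-770-DR (adjusted p = 0.14). RAB6A, the widespread form, had log2 signals of 11.43, 10.79 and 10.17 with DMSO and of 11.00, 10.69 and 9.68 with the compounds and a shared change of -0.34 (SE 0.13, adjusted p = 0.0971 by limma), and was called lower after quantile normalization (adjusted p = 0.0320) and with a trended prior (adjusted p = 0.0345). RAB2A, RAB28 and RAB31 remained called without any 1 experiment.

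RAB1A, RAB5A, RAB11A and RAB27A, which are widely used as markers of their compartments, gave no call. In all, the 45 Rabs not called had shared changes between -0.49 and 0.41. RAB5A, the Rab of early endosomes, had log2 signals of 10.74, 10.76 and 11.07 with DMSO and of 10.66, 10.93 and 10.83 with the compounds and a shared change of -0.05 (SE 0.13, adjusted p = 0.882 by limma). RAB11A, of recycling endosomes, had log2 signals of 11.24, 10.59 and 11.34 with DMSO and of 11.28, 10.79 and 11.11 with the compounds and stood at 0.00 (SE 0.13, adjusted p = 0.99 by limma). RAB1A, of traffic from the endoplasmic reticulum to the Golgi, had log2 signals of 11.00, 10.36 and 11.70 with DMSO and of 10.79, 10.29 and 11.23 with the compounds and stood at -0.25 (SE 0.13, adjusted p = 0.222 by limma). RAB27A, of regulated secretion, stood at -0.15 (SE 0.14, adjusted p = 0.565 by limma), and its DMSO signals differed by over 2-fold after quantile normalization. These p-values do not show that the genes were unchanged. By compartment, the Rabs of secretion and surface delivery gave 0 rises and 1 fall among 12, those of the endoplasmic reticulum and Golgi 3 and 2 among 16, those of early endosomes 1 and 1 among 10, those of late endosomes and lysosomes 2 and 0 among 6, those of recycling endosomes 1 and 0 among 6, and those of lysosome-related organelles and cilia 2 and 1 among 4. The 6 Rabs in no such list gave 1 rise. Over all genes 13.1% rose and 11.2% fell, and in lists this small such counts do not set any compartment apart. RAB3A, a Rab of synaptic vesicles, had log2 signals of 10.45, 9.48 and 7.16 with DMSO and of 9.90, 8.45 and 7.26 with the compounds, and showed the largest spread over the DMSO arrays of any member. RAB3A lay below its control with ET-770 and ET-770-DR and above it with RM, at folds of 0.682, 0.492 and 1.07, and was not called (adjusted p = 0.0977 by limma). Without the RM experiment, the pair that went the other way, RAB3A was called lower, with a shared change of -0.79 (adjusted p = 2.56e-05 by limma). That fit holds 2 pairs, and its p-value rests largely on a spread pooled over genes, not on that of RAB3A.

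Past 3-fold, the threshold that the study applied to 1 array per arm, there were few members, and all that are read by a probe with a symbol were lower. Under ET-770, 3 members were lower by more than 3-fold, DENND1B, DENND1A and TBC1D5, beside 2.15% of all genes, and 0 were higher by as much, beside 0.233%. Under ET-770-DR, 2 were lower, DENND1B and TBC1D5, beside 2.12%, and 0 were higher, beside 0.51%. Under RM, 4 were lower, TBC1D5, TBC1D22A, TBC1D32 and TBC1D8B, beside 1.36%, and 0 were higher, beside 0.0434%. The probe without a symbol that may read DENND2C, at 4.28-fold with RM, is not in this count. No Rab was past 3-fold against its own control. Against the mean of the 3 DMSO arrays RAB15 and RAB9A stood at 3.28- and 3.19-fold with ET-770, where the median log2 change of all genes was 0.45, and RAB3A at 0.294-fold with RM. By that control TBC1D22A, TBC1D32 and TBC1D8B were no longer past 3-fold with RM, while DENND1A and TBC1D19 were, at 0.307 and 0.324. At a threshold of 2-fold, ET-770 lowered 6 members, ET-770-DR lowered 10 and RM lowered 9, beside 4.68%, 4.94% and 4.28% of all genes. RAB9A with ET-770, and RAB9A and RAB36 with ET-770-DR, were over 2-fold, beside 2.01% and 3.84%, and 0 members with RM, beside 0.668%. Each of these folds rests on 1 array against 1 array and has no replicate check. No member moved by 1.5-fold or more in opposite directions with different compounds.

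The members that fell and the members that rose differed in a feature that the choice by symbol did not use, the length of genome that the gene covers. By the RefSeq gene table of GRCh38.p14, the 20 members that fell span 67.6 to 585 kb with a median of 149 kb, and the 12 that rose span 2.52 to 38.2 kb with a median of 19.7 kb, so the ranges do not overlap. Of the 27 members of 100 kb or more, 17 fell (63.0%) and 0 rose, while 47.7% of all 3119 genes of that length fell and 0.545% rose. Of the 41 members under 30 kb, 0 fell and 10 rose (24.4%), while 1.26% and 18.9% of 10217 genes did. Of the 37 members between these lengths, 3 fell (8.11%) and 2 rose (5.41%), while 8.79% and 8.93% of 5049 genes did. The same feature runs through all genes and is thus not particular to the members.

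Some pairs of relatives, picked after their values were seen, followed the same order. DENND1A and DENND1B span 550 and 277 kb, and DENND1C spans 14.6 kb. TBC1D22A spans 413 kb and TBC1D22B 75.2 kb. RAB2A spans 107 kb and RAB2B 17.9 kb. DENND6A spans 67.6 kb and DENND6B 18 kb. In each of these the longer relative fell, and the shorter one rose or was not called. Other pairs did not. RAB6B fell at 71.6 kb while the longer RAB6A, at 85.4 kb, was not called. RAB27B at 178 kb had a shared change of 0.24 and the shorter RAB27A, at 116 kb, one of -0.15. TBC1D9 at 136 kb stood at -0.05 and TBC1D9B, at 45.8 kb, at -0.35. RAB3C at 277 kb stood at 0.11 and RAB3A, at 7.26 kb, at -0.49, with none of these 6 genes called. TBC1D5, the member that fell most, is also the longest at 585 kb. Some long genes gave no call: RAB38, which spans 372 kb, and RAB3C have signals among the lowest 25% of genes, whereas DENND2B at 218 kb and RAB27B do not. Across the 105 genes Pearson's r between the shared change and the log10 span was -0.63 and Spearman's rho -0.61, and over 18385 genes both were -0.40. These are descriptions across genes that share the same 6 arrays, and the part of gene length in the changes was not tested.

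**Figure D4:**
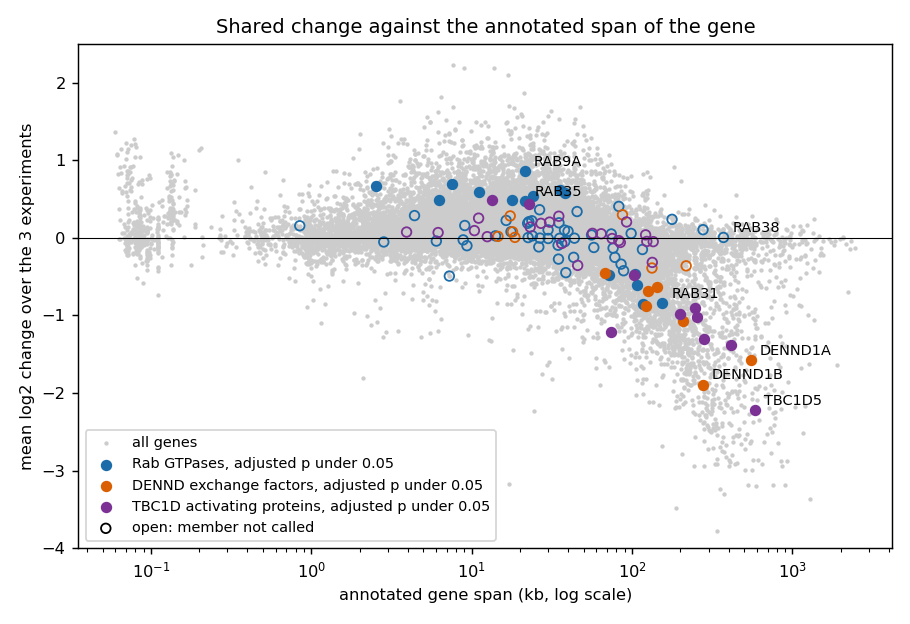
Shared change (vertical axis, mean log2 change over the 3 experiments) against the annotated span of the gene (horizontal axis, kb on a log scale), for all genes in grey and the 105 members in colour, filled where the adjusted p was under 0.05. The filled points above 0 end at 38.2 kb and those below 0 begin at 67.6 kb.

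The genes around the switch were read from lists of known factors, which hold 129 measured genes. Among these 20 rose and 35 fell, and the shares over all genes to set beside these and the following counts are 13.1% and 11.2%. Of 13 activating proteins with other symbols 7 fell and 0 rose, with a median shared change of -0.51. The 7 that fell span 124 to 836 kb and the others 34.8 to 121 kb. Of all genes of 100 kb or more 47.7% fell, and the part of length in the counts of these lists was not tested. EVI5, an activating protein that also controls mitotic entry, had log2 signals of 8.39, 7.90 and 8.34 with DMSO and of 5.80, 6.11 and 6.33 with the compounds and fell by 2.13 (SE 0.16, adjusted p = 2.62e-05 by limma). TBCK, which is mutated in a childhood encephalopathy, had log2 signals of 9.63, 9.17 and 9.03 with DMSO and of 7.23, 7.49 and 7.52 with the compounds and fell by 1.86 (SE 0.17, adjusted p = 8.2e-05 by limma). Of 38 exchange factors that are not members, DENND3 among them, 8 fell and 9 rose. SBF2, which carries a DENN domain and is linked to a demyelinating neuropathy, had log2 signals of 9.52, 8.57 and 8.55 with DMSO and of 6.0, 5.23 and 5.86 with the compounds and fell by 3.18 (SE 0.17, adjusted p = 6.57e-06 by limma). TRAPPC9, a subunit of the TRAPP complex, fell by 1.46 (SE 0.12, adjusted p = 4.1e-05 by limma), while another subunit, TRAPPC6B, rose by 0.75 (SE 0.18, adjusted p = 0.0136 by limma). FLCN, the DENN-fold protein folliculin that signals lysosomal nutrient state, had log2 signals of 9.72, 8.82 and 8.87 with DMSO and of 10.78, 9.74 and 9.43 with the compounds and rose by 0.85 (SE 0.14, adjusted p = 0.0018 by limma). TRAPPC6B was not called without the ET-770-DR experiment (adjusted p = 0.0610 by limma).

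Of 73 effectors, 20 fell and 8 rose, with a median of -0.06. EXOC6B, an exocyst subunit that tethers vesicles at the plasma membrane, had log2 signals of 9.88, 8.92 and 9.19 with DMSO and of 6.72, 6.46 and 6.06 with the compounds and fell by 2.92 (SE 0.16, adjusted p = 7.46e-06 by limma). EHBP1, which links Rabs of the RAB8 and RAB10 group to actin, had log2 signals of 10.90, 9.82 and 10.03 with DMSO and of 7.68, 7.04 and 7.73 with the compounds and fell by 2.77 (SE 0.17, adjusted p = 9.15e-06 by limma). RILP, the RAB7A effector that recruits dynein to late endosomes, rose by 0.63 (SE 0.12, adjusted p = 0.00433 by limma), and RBSN, the RAB5 effector rabenosyn, rose by 0.61 (SE 0.13, adjusted p = 0.00685 by limma). The machinery of GDI and prenylation was the list with no falls: 3 of 5 measured genes rose, with a median of 0.42. CHML, the escort protein that presents new Rabs to the prenyl transferase, had log2 signals of 8.74, 8.12 and 8.45 with DMSO and of 9.66, 9.50 and 9.62 with the compounds and rose by 1.16 (SE 0.13, adjusted p = 0.00028 by limma). RABGGTB, the catalytic subunit of that transferase, had log2 signals of 9.72, 9.38 and 11.07 with DMSO and of 10.58, 9.92 and 11.20 with the compounds and rose by 0.51 (SE 0.15, adjusted p = 0.0382 by limma), with its highest change in the ET-770 experiment. RABGGTB was not called without the ET-770 experiment (adjusted p = 0.467), without that of ET-770-DR (adjusted p = 0.0831) or after quantile normalization (adjusted p = 0.0726), by limma. RABIF, a chaperone of nucleotide-free Rabs, was the remaining gene that rose, at 0.42 (SE 0.12, adjusted p = 0.0291 by limma), and was named after its values were seen.

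**Figure D5:**
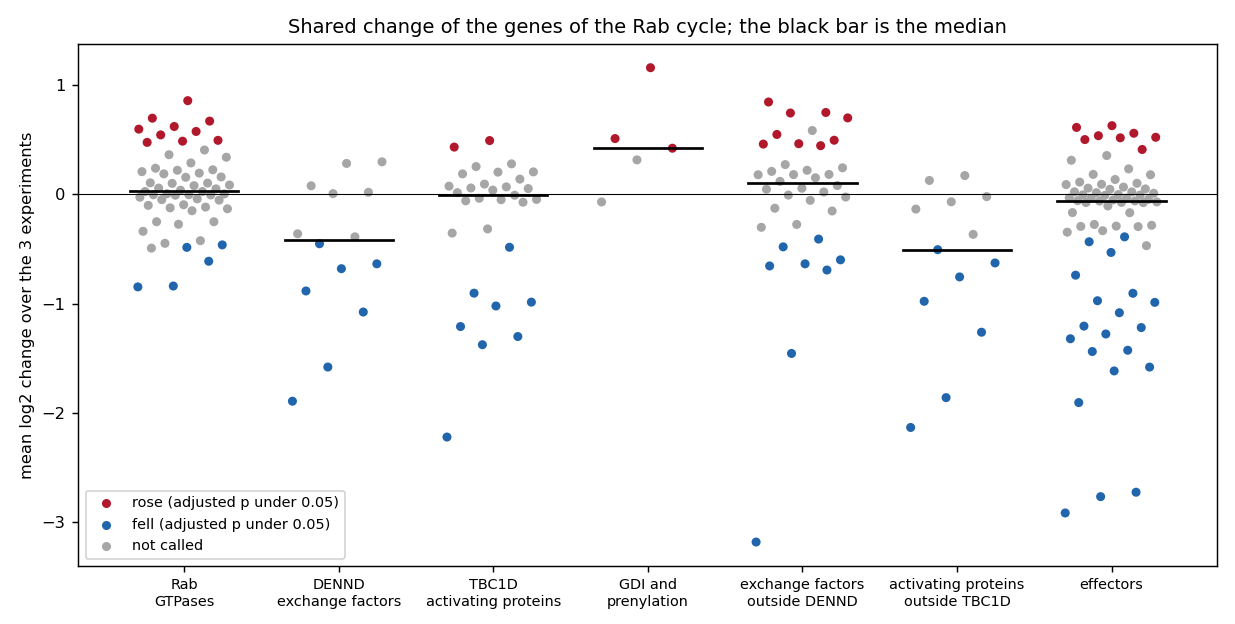
Shared change (vertical axis, mean log2 change over the 3 experiments) of every measured gene of the Rab cycle by group (horizontal axis), in red where it rose, in blue where it fell and in grey where it was not called, with a bar at the median. The medians of the DENND genes and of the activating proteins outside the TBC1D symbols lie at -0.42 and -0.51, and that of GDI and prenylation at 0.42.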

How the data were processed

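Total RNA of 6 cultures was hybridized to Human Gene 1.0 ST arrays. The deposited values are on a log2 scale and were made by the authors with RMA in Affymetrix Expression Console. Of 33297 probes, 19460 that the platform annotation ties to 1 symbol were averaged per gene on that scale, and 1754 with several symbols and 12083 with none were left out. The 105 members rest on 109 probes, and all have their current symbol. The members, the gene lists and the genes named were chosen with earlier results of these data known. Named by rule were members past 3-fold with any compound, the 8 largest rises and falls called per class, a set of well-known members fixed by name, of which TBC1D7 is read only by a probe of several symbols, and the 2 largest rises and falls called per other list.

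Compound was compared with the DMSO array of its experiment. The shared response came from R 4.3.3 and limma 3.58.1 (lmFit and eBayes without trend, two-sided), with treatment and experiment as terms, and standard errors are moderated over all genes. The labels name the DMSO array of each compound, which is where the pairing comes from. Whether the cultures of an experiment were grown from separate stocks is not given in the sources used here. Detection p-values were not used here, and a signal among the lowest 25% of genes was called low. The number of arrays limits the precision. Other steps used Python 3.11.15 (pandas 2.3.3, numpy 2.4.6) and figures matplotlib 3.10.9. The fit was run on simulated arrays with planted changes that were equal in every experiment. These were larger than the shared change of any called member but TBC1D5. That run does not show how well smaller changes, or changes that differ between compounds, are found. Alternatives were no block, quantile normalization, low genes left out, the brightest probe per gene, a trended prior, current symbols, the mean of the 3 DMSO arrays as control and each experiment left out. RefSeq promoters matched 82 of 105 members (78.1%), too few for a summary over members. Protein features were not analysed here.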

Additional observations from a re-analysis of the deposited data

Results flagged for a closer look

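RAB34, a Golgi and lysosome Rab, is read only by a probe that carries the symbol of another gene as well, and was left out of every count. This probe had log2 signals of 10.68, 9.58 and 10.52 with DMSO and of 11.14, 10.13 and 10.87 with the compounds, in the order ET-770, ET-770-DR and RM. It was higher than its own control in 3 of 3 experiments, by a mean of 0.455 on the log2 scale, and no test was made.

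A probe that carries no symbol in the platform annotation used, and that may be the one the study read as DENND2C, is 1 of 12083 such probes and was in no comparison. The probe was picked by its RM fold, so its rise with RM was fixed by the choice. It was higher than its own control in 3 of 3 experiments, by 0.27, 0.72 and 2.10 on the log2 scale with ET-770, ET-770-DR and RM and by a mean of 1.03, and no test was made. Among the probes without a symbol 65 were over 3-fold with RM.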

How the results depend on the processing

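All 32 calls kept their direction under every alternative in which they were tested, but for most alternatives this was fixed in advance. The block, the trended prior, leaving out low genes and current symbols do not alter the change of a gene. Each called gene went the same way in every experiment, so leaving out any experiment could not turn it. Only quantile normalization and the brightest probe could have done so. Without the replicate block the counts became 0 Rabs that rose and 0 that fell, 2 DENND and 1 TBC1D that fell, 0 TBC1D that rose, and, of the other genes of the Rab cycle, 0 that rose and 9 that fell. With 1 experiment left out, the counts ranged from 3 to 14 Rabs that rose, 3 to 6 Rabs, 5 to 7 DENND and 7 to 8 TBC1D that fell, 0 to 3 TBC1D that rose, and, of the other genes, 10 to 23 that rose and 25 to 35 that fell. The calls over all genes moved as well. They numbered 2705 without ET-770, 3452 without ET-770-DR and 6141 without RM, beside 4471 with all experiments. The class medians moved by less than their SD over the experiments under quantile normalization, without low genes, by the brightest probe, with current symbols and without each experiment, and were not recomputed under the others. Lower by more than 3-fold were 5 members with ET-770 after quantile normalization and 1 with ET-770-DR by the brightest probe. Against the mean of the 3 DMSO arrays there were 5 with ET-770-DR, and 2 over 3-fold with ET-770, where the median of all genes moved to 0.45. The cause was not tested. Without the ET-770 experiment 14 of the 32 calls were lost, without that of ET-770-DR 9, without that of RM 1. In the fit without ET-770 the SE was 0.233 for both DENND1A and DENND1B. Its p-values thus rest on a spread pooled over genes and not on the spread of each gene. In the fit without RM these SEs were 0.138 and 0.145, so its p-values rest largely on a pooled spread as well.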

Other observations

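Of the probes with several symbols, 19 carry the symbol of a Rab or TBC1D gene. The 11 probes of the TBC1D3 family, a group of near-identical primate copies, had mean log2 changes between 0.09 and 0.13. The probe of RAB43 and that of RAB4B both stood at -0.35, the 2 probes shared by RAB6A, RAB6C and RAB6D at -0.34 and -0.41, the probe of TBC1D26 and TBC1D28 at -0.11, and those of TBC1D2B and TBC1D7 at -0.02. TBC1D7 is a subunit of the TSC complex. RAB6A, RAB43, TBC1D26 and TBC1D2B also have a probe of their own, which is the one used in the counts.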
